A study of Homo sapiens with 8 samples.

Results

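The genes described here encode the protein import machinery of mitochondria and the carrier family of the mitochondrial inner membrane, read in A549 cells that had been stretched and then sorted by senescence staining. They were chosen by symbol, as every row that begins with TOMM, TIMM or SLC25A and is not a pseudogene, which gave 59 of the 13841 rows. Of these, 21 were translocase genes (TOMM and TIMM), 37 were carrier genes (SLC25A) and 1 was the antisense RNA SLC25A21-AS1. A pair of pseudogene rows, TOMM20P1 and TIMM8AP1, were left out. A549 cells are an established line of lung adenocarcinoma origin, a tumour line often used in place of alveolar epithelium. RNA was measured by sequencing short amplicons, 1 panel for all genes, and deposited as estimated counts per gene. All cells had been exposed to cyclic stretch (15% elongation, 15 cycles per min) for 24 h and kept in culture for 6 days. The 4 libraries labelled Senescent (numbers 1, 3, 4 and 5) came from cells sorted as β-galactosidase positive, and the 4 labelled Non_senescent (numbers 2, 6, 7 and 8) from cells sorted as negative. Unstretched cells were not analysed here, and the labels name no cultures of origin. The p-values thus measure only how far these libraries spread, which may be technical.

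Most mitochondrial proteins are made in the cytosol and enter through the TOM complex of the outer membrane. Those with a presequence then pass the TIM23 complex and are pulled in by a motor, whereas the hydrophobic SLC25 carriers are escorted by small TIM chaperones to the TIM22 complex, which inserts them in the inner membrane. The carriers are thus both cargo of the translocases and the route by which nucleotides, phosphate, organic acids, amino acids and cofactors cross that membrane. In senescent cells mitochondria are known for enlarged mass with poorer respiration.

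Total counts ranged from 5634961 to 7990839 per library. Levels are given as CPM, which relate each count to the size of its library, after scaling of the libraries by the trimmed mean of M-values (TMM). Senescent 1 and Non_senescent 2 stood apart: their median correlation with the other libraries over all tested rows (log2-CPM) was 0.938 for Senescent 1 and 0.924 for Non_senescent 2, against 0.964 to 0.972 for the other 6. Many estimates moved when these libraries were left out, and those given as without both were made without Senescent 1 and Non_senescent 2. The mitochondrially encoded rows summed, before TMM scaling, to 109 CPM in Senescent 1, to 9.39 CPM in Non_senescent 2 and to between 17.4 and 23.3 CPM in the rest. All 7 markers fixed for A549 were present, with sums of 3852 to 4571 CPM in Senescent and 4828 to 5764 CPM in Non_senescent libraries. Of the markers of other cells, 5 of 6 for fibroblasts summed to 18.02 to 18.39 CPM in Senescent and 17.6 to 20.7 CPM in Non_senescent libraries, and 2 of 4 for leukocytes to 48.4 to 50.5 CPM in Senescent and 36.4 to 51.6 CPM in Non_senescent libraries. The 1 endothelial marker measured, CDH5, was at 0 to 1.18 CPM in Senescent and 0 to 0.998 CPM in Non_senescent libraries. The A549 sums did not overlap between the groups. Of their 7 markers only AKR1B10, the largest part of each sum, did not overlap by itself. It stood at 1801 to 2339 CPM in Senescent and 2530 to 3027 CPM in Non_senescent libraries. The part of any of these marker and mitochondrial values in the results was not tested.

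Estimates for the translocase genes lay mostly below 0, that is lower in the Senescent libraries, those for carriers lay on both sides, and no single gene passed the test. Of 20 translocase genes with enough counts to be tested, 18 had a log2 fold change below 0 (Senescent minus Non_senescent throughout), with a median of -0.28. Of 33 tested carriers, 19 were below 0 and 14 above, with a median of -0.031. Over all 11351 tested rows 51.9% were below 0 and the median was -0.019. That background moved with level. Rows were ranked by mean level, which also reflects the yield of each amplicon, and cut into 4 groups of like size. In the highest group, which holds 10 of the translocases and 10 of the carriers, 70.3% of all rows were below 0, and 9 of the 10 translocases and 6 of the 10 carriers were. In the next group, with 9 translocases and 10 carriers, 56.0% of all rows were below 0, with 8 of the translocases and 4 of the carriers. In the group below that, with 0 translocases, 7 of 9 carriers were below 0, against 46.3% of all rows. In the lowest group the 1 translocase and 2 of 4 carriers were below 0, against 35.0% of all rows. The counts also moved with the processing: scaling by library totals alone left 16 of 20 translocases, 11 of 33 carriers and 39.5% of all rows below 0, and leaving out both Senescent 1 and Non_senescent 2 left 14, 8 and 47.9%. In bulk RNA, fewer cells of a kind and less RNA per cell cannot be told apart.

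At a threshold of 0.05 on the adjusted p, the quasi-likelihood test of edgeR called 0 members and 0 of 11351 rows (0%). The limma voom test, run with a weight for each library, called 0 rows. The Wald test of DESeq2 called 52 rows, with 0 members among them. At an unadjusted p under 0.05, where 14.4% of all tested rows stood, there were 5 of 20 translocases and 5 of 33 carriers. Among translocases, 4 were lower (TOMM6, TOMM34, TIMM10 and TIMMDC1) and 1 was higher (TIMM10B), with 6.85% of all rows lower and 7.52% higher by this count. Among carriers, 2 were lower (SLC25A3 and SLC25A43) and 3 higher (SLC25A29, SLC25A35 and SLC25A45). The groups did not overlap for 1 translocase and 3 carriers, that is for 4 of 53 members (7.55%), where 9.14% of all tested rows did not overlap (5% higher and 4.14% lower). Brackets after a log2 fold change hold its 95% interval and, where given, the estimate without both libraries that stood apart.

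**Figure D1:**
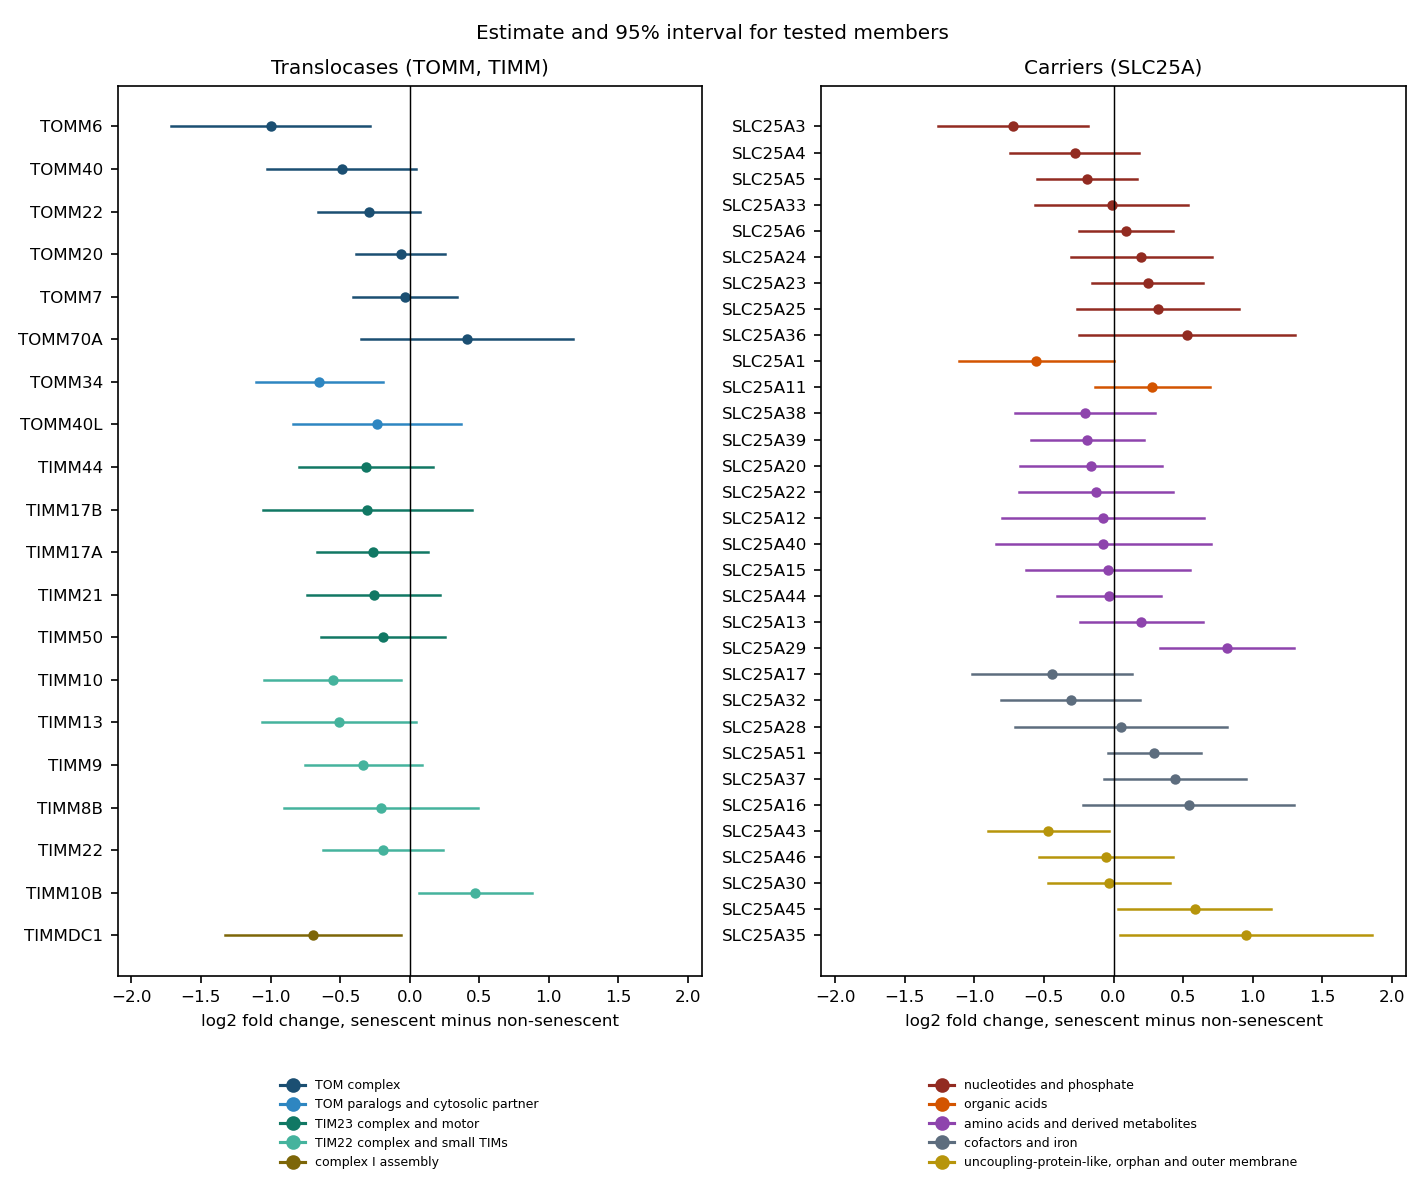
Log2 fold change (Senescent minus Non_senescent, horizontal axis) of the 20 tested translocases (left) and 32 of the 33 tested carriers (right), with points for the edgeR estimate, lines for the 95% interval and colours for the role of the gene. Of the 20 translocases 18 lie left of 0, whereas the 32 carriers drawn lie on both sides, 18 left and 14 right.

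In the TOM complex the small subunit TOMM6 had the largest difference, and the intervals of the other 5 subunits spanned 0. TOMM6 stood at 97.1, 158, 121 and 177 CPM in Senescent 1, 3, 4 and 5, against 483, 155, 289 and 178 CPM in Non_senescent 2, 6, 7 and 8. Its highest values were those of Non_senescent 2 and 7, and the groups overlapped, since Non_senescent 6 lay below Senescent 3 and 5. The log2 fold change was -0.997 ± 0.33 (SE, n = 4 each; edgeR adjusted p = 0.309), -0.57 without Non_senescent 2 and -0.43 without both Senescent 1 and Non_senescent 2. TOMM40, the pore of the outer membrane, stood at 119.6, 106, 73.4 and 94.0 CPM in the Senescent libraries, against 213, 109, 128 and 101 CPM in the Non_senescent libraries, a log2 fold change of -0.49 (95% interval -1.02 to 0.048) that was -0.18 without Non_senescent 2. TOMM22, the receptor that holds the complex together, was at -0.29 (-0.66 to 0.076; -0.16 without Non_senescent 2 and -0.20 without both).

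TOMM20 encodes the receptor for presequences, a protein often taken as a measure of mitochondrial mass and not measured here. Its RNA stood at 346, 308, 305 and 307 CPM in the Senescent libraries, against 335, 358, 306 and 324 CPM in the Non_senescent libraries. The groups overlapped widely, and the log2 fold change was -0.066 (95% interval -0.39 to 0.26; -0.085 without both), which turned to 0.052 with scaling by totals alone. The small subunit TOMM7 was at -0.030 (-0.40 to 0.34; 0.067 without both), or 0.081 with that scaling. TOMM70, listed here under its older symbol TOMM70A, is the receptor that takes in carrier precursors, and it was the only TOM subunit with an estimate above 0. It stood at 41.4, 31.2, 29.4 and 36.2 CPM in the Senescent libraries, against 9.31, 38.4, 20.2 and 36.1 CPM in the Non_senescent libraries, with the low values in Non_senescent 2 and 7 and the other 2 within the Senescent range. Its log2 fold change of 0.41 (-0.35 to 1.17) was 0.14 without Non_senescent 2 and 0.052 without both libraries that stood apart.

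TOMM34, a cytosolic co-chaperone of precursor proteins and not a subunit of TOM, was the 1 translocase gene whose groups did not overlap. It stood at 22.0, 31.1, 41.8 and 31.7 CPM in Senescent 1, 3, 4 and 5, against 60.1, 47.6, 44.5 and 46.9 CPM in Non_senescent 2, 6, 7 and 8. Senescent 4 came nearest to the Non_senescent range, and Senescent 1 was the lowest. The estimate was -0.65 ± 0.21 (SE; edgeR adjusted p = 0.309) and stayed between -0.80 and -0.51 with each library left out in turn, and was -0.39 without both. TOMM40L, a paralog of TOMM40, was at -0.23 (-0.84 to 0.37; 0.037 without both), and TOMM20L had 0 to 6 counts per library and was not tested.

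All 5 tested genes of the TIM23 complex and its motor had estimates below 0, and each of their 95% intervals spanned 0. The log2 fold change was -0.32 (-0.80 to 0.16; -0.069 without both) for TIMM44, which tethers the import motor to the channel, -0.19 (-0.64 to 0.25; 0.023 without both) for the receptor TIMM50 and -0.26 (-0.74 to 0.22; -0.42 without both) for TIMM21, which links TIM23 to TOM and to the assembly of respiratory complexes. TIMM17A and TIMM17B are alternative channel subunits. TIMM17A stood at 73.6, 65.9, 65.4 and 70.3 CPM in the Senescent libraries, against 113, 71.1, 74.6 and 71.6 CPM in the Non_senescent libraries, so that Non_senescent 2 alone lay well above the rest, and its log2 fold change of -0.26 was -0.060 without that library. TIMM17B stood at 58.2, 29.3, 30.0 and 26.5 CPM in the Senescent libraries, against 80.0, 36.2, 28.6 and 32.4 CPM in the Non_senescent libraries, with high values in Senescent 1 and Non_senescent 2 alike. Its estimate of -0.30 (-1.05 to 0.45) was 0.16 without Non_senescent 2 and -0.63 without Senescent 1. TIMM23 itself was not analysed here.

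Of the genes that escort and insert carriers, 5 of 6 had estimates below 0. TIMM10 and TIMM9 form the hexameric chaperone of the intermembrane space. TIMM10 stood at 97.9, 81.3, 92.5 and 109 CPM in Senescent 1, 3, 4 and 5, against 210.4, 106, 135 and 107 CPM in Non_senescent 2, 6, 7 and 8. Non_senescent 2 was far above all others, while Non_senescent 6 and 8 lay below Senescent 5, so the groups overlapped. Its estimate was -0.55 ± 0.23 (SE; edgeR adjusted p = 0.321) and -0.27 without Non_senescent 2. TIMM9 was at -0.33 (-0.75 to 0.088; -0.19 without both), with 62.2, 104, 111 and 93.9 CPM in the Senescent libraries, against 111, 132, 117 and 107 CPM in the Non_senescent libraries.

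The other small TIM pair is built from TIMM8 and TIMM13 proteins. TIMM13 was at -0.51 (-1.06 to 0.049), or -0.19 without Non_senescent 2, and TIMM8B at -0.21 (-0.90 to 0.49), or 0.25 without that library. A row named TIMM8AP1, a pseudogene of TIMM8A, held 113 to 197 counts in Senescent and 78 to 184 in Non_senescent libraries and was left out, and TIMM8A itself was not analysed here. TIMM22, the pore of the carrier insertase, was at -0.19 (-0.62 to 0.24; -0.21 without both). TIMM10B, a small TIM that docks the chaperone on TIM22, went the other way. It stood at 118, 98.5, 81.1 and 86.4 CPM in Senescent 1, 3, 4 and 5, against 71.4, 83.4, 53.4 and 68.7 CPM in Non_senescent 2, 6, 7 and 8, with 3 of 4 Senescent libraries above every Non_senescent one and Non_senescent 6 above Senescent 4. Its log2 fold change was 0.47 ± 0.19 (SE; edgeR adjusted p = 0.319) and 0.39 without both libraries that stood apart.

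TIMMDC1 carries the TIMM prefix but encodes an assembly factor of respiratory complex I. It stood at 37.9, 73.6, 58.5 and 93.5 CPM in Senescent 1, 3, 4 and 5, against 166, 89.2, 92.5 and 79.1 CPM in Non_senescent 2, 6, 7 and 8, the lowest value being that of Senescent 1 and the highest that of Non_senescent 2. Its estimate of -0.70 ± 0.29 (SE; edgeR adjusted p = 0.323) was -0.38 without Non_senescent 2 and -0.19 without both.

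Promoters are shown for TOMM6, TIMMDC1, TIMM10 and TIMM10B, since they are the translocase genes at an unadjusted p under 0.05 whose promoter holds the core of the ETS motif, which is bound by GABPA, a regulator of nuclear genes for mitochondrial proteins. Each line gives the 250 bases before the transcription start, 5′ to 3′ along the gene, from RefSeq (GRCh38.p14), with the ETS core CCGGAAG in capitals on either strand (CTTCCGG where it lies on the opposite one).
TOMM6: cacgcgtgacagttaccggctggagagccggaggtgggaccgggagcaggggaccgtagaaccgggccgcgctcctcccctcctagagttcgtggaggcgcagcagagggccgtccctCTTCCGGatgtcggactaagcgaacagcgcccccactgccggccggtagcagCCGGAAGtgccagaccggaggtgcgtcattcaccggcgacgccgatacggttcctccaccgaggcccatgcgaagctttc
TIMMDC1: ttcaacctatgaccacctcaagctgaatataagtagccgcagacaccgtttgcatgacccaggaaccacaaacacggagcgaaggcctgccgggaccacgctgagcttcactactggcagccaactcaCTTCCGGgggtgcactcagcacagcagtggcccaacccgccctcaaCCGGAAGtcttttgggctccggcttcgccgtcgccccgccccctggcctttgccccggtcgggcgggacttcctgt
TIMM10: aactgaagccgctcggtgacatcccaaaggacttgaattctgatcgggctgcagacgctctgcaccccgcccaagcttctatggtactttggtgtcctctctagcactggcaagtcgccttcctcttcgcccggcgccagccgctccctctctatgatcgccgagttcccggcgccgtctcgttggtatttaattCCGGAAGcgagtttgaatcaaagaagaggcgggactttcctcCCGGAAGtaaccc
TIMM10B: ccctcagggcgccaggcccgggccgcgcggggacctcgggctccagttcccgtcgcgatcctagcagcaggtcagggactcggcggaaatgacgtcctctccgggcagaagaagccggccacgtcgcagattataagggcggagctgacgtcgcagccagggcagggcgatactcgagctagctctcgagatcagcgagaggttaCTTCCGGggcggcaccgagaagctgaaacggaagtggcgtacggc
The windows lie at chr6:41787444-41787693 (plus strand), chr3:119498297-119498546 (plus strand), chr11:57530755-57531004 (minus strand) and chr11:6481251-6481500 (plus strand). In the GENCODE annotation these genes start within the windows, at 41787662, 119498532, 57530803 and 6481447. By that annotation the TIMM10B match and the TIMM10 match nearest the window's end lie past the start. TOMM6, TIMMDC1 and TIMM10 each held 2 matches and TIMM10B held 1. TIMM10B had an estimate above 0 and the other 3 below it. Over all members, 52 of 59 had a promoter in the table. The core was found in 7 of 20 translocase promoters (35%) and 7 of 31 carrier promoters (22.6%), against 8.82% of 27305 promoters of the same length. Those 27305 were not limited to tested rows or to protein-coding genes, so they are not a matched background. The E-box CACGTG was found in 1 translocase and 6 carrier promoters, against 6.49% of all. The consensus motifs of NRF1 and YY1 and the ERR motif TCAAGGTCA, each as 1 exact string on both strands, were found in 0 of these 51 promoters, against 1.13% of all promoters for NRF1, 0.256% for YY1 and 0.319% for ERR. No 2 motifs overlapped in a member's promoter. A match is a description of the letters, and no binding was measured.

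**Figure D2:**
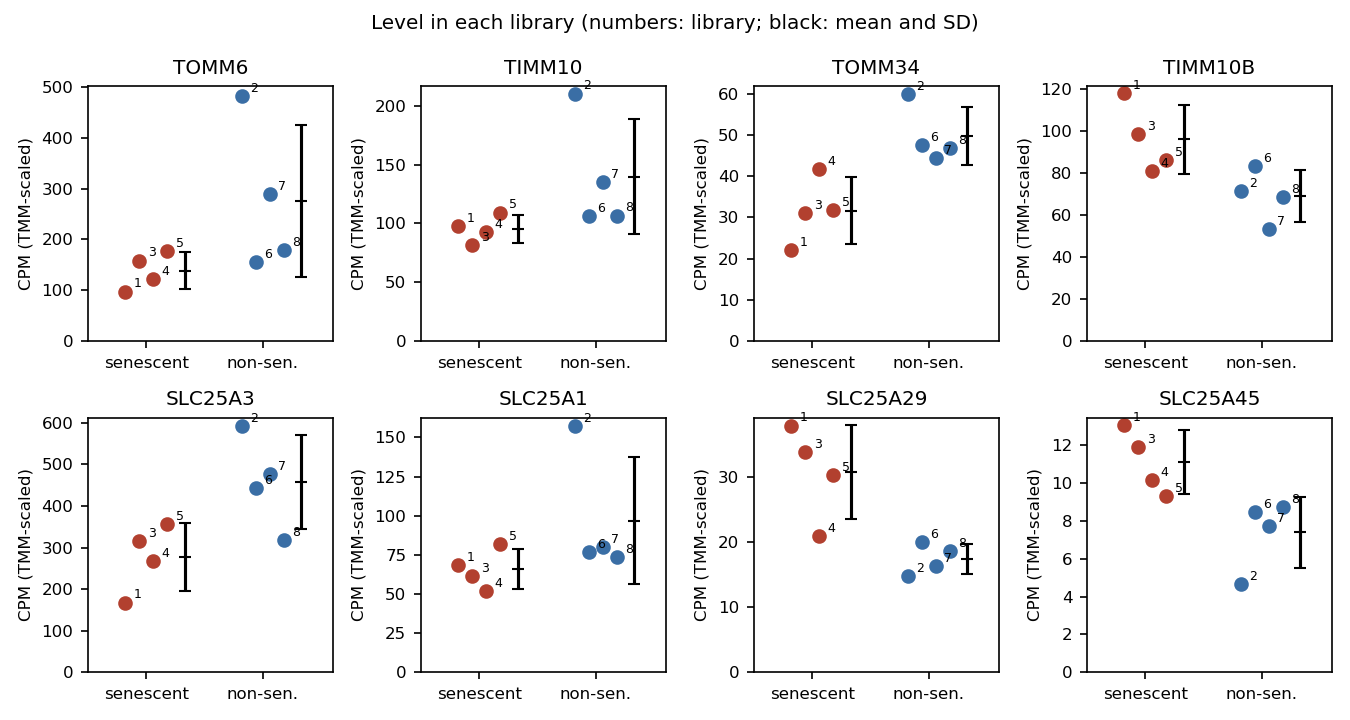
Level in each library (vertical axis, TMM-scaled CPM on a linear scale from 0) of 8 members, 4 translocases above and 4 carriers below, with library numbers beside the points and the mean and SD in black. TOMM34, SLC25A29 and SLC25A45 are parted between the groups. Library 2 is the highest of the Non_senescent points for TOMM6, TIMM10, TOMM34, SLC25A3 and SLC25A1.

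Among the carriers, the phosphate carrier SLC25A3, which feeds ATP synthase, had the lowest estimate. It stood at 168, 316, 268 and 356 CPM in Senescent 1, 3, 4 and 5, against 592, 443, 477 and 319 CPM in Non_senescent 2, 6, 7 and 8. Senescent 1 had the lowest value and Non_senescent 8 lay within the Senescent range. Its log2 fold change was -0.72 ± 0.25 (SE; edgeR adjusted p = 0.309) and -0.56 without Non_senescent 2, or -0.38 without Senescent 1 as well. The ADP/ATP carriers, which exchange the product of that synthase for its substrate, had intervals that spanned 0. SLC25A5 was at -0.19 (-0.55 to 0.17), SLC25A6 at 0.091 (-0.25 to 0.43; 0.17 without both) and SLC25A4 at -0.28 (-0.74 to 0.19; -0.058 without both).

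Within the counts of these 3 genes, SLC25A6 made up 49.0%, 57.1%, 50.4% and 61.3% in Senescent 1, 3, 4 and 5, against 50.05%, 48.4%, 51.0% and 48.0% in Non_senescent 2, 6, 7 and 8. The high shares were those of Senescent 3 and 5, and the groups overlapped. The SLC25A6 to SLC25A5 ratio differed by 0.30 on the log2 scale (exact two-sided permutation p = 0.171; 0.629 adjusted over 11 pairs). SLC25A4 made up 0.669% to 0.985% in Senescent and 0.865% to 1.18% in Non_senescent libraries. The amplicons of the 3 genes may differ in yield and their sequences are alike, so these shares are of counts and not of molecules.

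The intervals of the other nucleotide carriers spanned 0 too. Of the calcium-dependent ATP-Mg/phosphate carriers, SLC25A23 was at 0.25 (-0.16 to 0.65; 0.44 without both), SLC25A24 at 0.20 (-0.30 to 0.70; 0.13 without both) and SLC25A25 at 0.32 (-0.26 to 0.90). The pyrimidine nucleotide carrier SLC25A36 stood at 50.7, 36.2, 51.6 and 50.6 CPM in the Senescent libraries, against 10.6, 42.6, 27.8 and 49.8 CPM in the Non_senescent libraries, with the low values in Non_senescent 2 and 7. The estimate was 0.53, or 0.25 without Non_senescent 2. The paralog SLC25A33 was at -0.014 (-0.56 to 0.53; 0.012 without both).

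SLC25A1 exports citrate for lipid synthesis. It stood at 68.6, 61.7, 51.8 and 81.9 CPM in Senescent 1, 3, 4 and 5, against 157, 76.7, 80.1 and 73.4 CPM in Non_senescent 2, 6, 7 and 8. Non_senescent 2 was high and the other 7 libraries lay between 51.8 and 81.9 CPM, and the log2 fold change of -0.55 (95% interval -1.11 to 0.00041) was -0.20 without Non_senescent 2. The oxoglutarate carrier SLC25A11, part of the malate-aspartate shuttle, was at 0.28 (-0.13 to 0.69; 0.22 without both). Of the aspartate/glutamate carriers of the same shuttle, SLC25A13 was at 0.20 (-0.24 to 0.64; 0.39 without both) and SLC25A12 at -0.075 (-0.80 to 0.65; 0.28 without both), or 0.044 for SLC25A12 with scaling by totals alone.

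SLC25A29, a carrier of basic amino acids such as arginine and lysine, had the smallest p of all members. It stood at 37.9, 33.8, 20.9 and 30.3 CPM in Senescent 1, 3, 4 and 5, against 14.8, 19.97, 16.4 and 18.7 CPM in Non_senescent 2, 6, 7 and 8. Every Senescent value lay above every Non_senescent value, Senescent 4 and Non_senescent 6 being the nearest to each other. The estimate was 0.81 ± 0.22 (SE, n = 4 each; 95% interval 0.33 to 1.29; edgeR adjusted p = 0.309). It was 0.65 without both libraries that stood apart, and DESeq2's Wald test gave an adjusted p of 0.0681.

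The remaining carriers of amino acids and their derivatives had intervals that spanned 0. The glutathione carrier SLC25A39 was at -0.19 and its paralog SLC25A40 at -0.074. SLC25A38, which brings in glycine for haem synthesis, was at -0.20, the carnitine/acylcarnitine carrier SLC25A20 at -0.16, the glutamate carrier SLC25A22 at -0.12, the ornithine carrier SLC25A15 at -0.039 and SLC25A44, a carrier of branched-chain amino acids, at -0.031. Each of these 7 estimates, all below 0, was above 0 without both Senescent 1 and Non_senescent 2.

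Of the carriers of cofactors and iron, SLC25A51, which imports NAD, was the 1 whose groups did not overlap. It stood at 57.4, 69.4, 69.3 and 61.0 CPM in Senescent 1, 3, 4 and 5, against 52.8, 51.1, 49.1 and 56.8 CPM in Non_senescent 2, 6, 7 and 8. The margin between Non_senescent 8 and Senescent 1 was narrow, and the log2 fold change was 0.29 ± 0.15 (SE; edgeR adjusted p = 0.384). The iron carrier SLC25A37, or mitoferrin 1, was at 0.44 (-0.072 to 0.95), with 79.8, 53.7, 42.4 and 38.7 CPM in the Senescent libraries, against 31.6, 43.0, 44.9 and 38.4 CPM in the Non_senescent libraries, and at 0.19 without Senescent 1. Its paralog SLC25A28, mitoferrin 2, was at 0.055 (-0.71 to 0.82; -0.063 without both).

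SLC25A16, a carrier tied to coenzyme A, stood at 35.0, 37.6, 40.0 and 38.5 CPM in the Senescent libraries, against 8.43, 33.003, 22.8 and 39.8 CPM in the Non_senescent libraries, the low values again being those of Non_senescent 2 and 7. The estimate was 0.54 (-0.22 to 1.30), or 0.26 without Non_senescent 2. The folate carrier SLC25A32 was at -0.31 (-0.81 to 0.19), or -0.11 without Non_senescent 2 and 0.034 without both. The peroxisomal carrier SLC25A17 was at -0.44 (-1.01 to 0.13), or -0.20 without Non_senescent 2. Too few counts for a test were found for SLC25A14, SLC25A21, SLC25A26 and SLC25A42, at 1 to 16 counts per library. The antisense RNA SLC25A21-AS1 overlaps the start of SLC25A21 on chromosome 14 and was at 0.10 (-0.60 to 0.81). Use of the strand in counting was not given in the sources used here, so reads from the stretch that the pair share may not be told apart.

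Among carriers with no clear substrate or a place outside the inner membrane, SLC25A45 had groups that did not overlap, at 13.0, 11.9, 10.1 and 9.31 CPM in Senescent 1, 3, 4 and 5, against 4.65, 8.46, 7.72 and 8.70 CPM in Non_senescent 2, 6, 7 and 8. The log2 fold change was 0.58 ± 0.25 (SE; edgeR adjusted p = 0.329), or 0.35 without both libraries that stood apart. SLC25A35 stood at 58.4, 18.8, 22.4 and 14.5 CPM in the Senescent libraries, against 8.58, 21.2, 12.2 and 16.8 CPM in the Non_senescent libraries, where Senescent 1 was far above all others. Its log2 fold change of 0.95 was 0.34 without Senescent 1 and 0.17 without both. SLC25A43 was at -0.47 (-0.90 to -0.035; edgeR adjusted p = 0.324), or -0.23 without both. Without both libraries SLC25A43, SLC25A35 and SLC25A45 no longer passed the unadjusted threshold of 0.05, nor did TOMM6, TIMM10 and TIMMDC1. TOMM34, TIMM10B, SLC25A3 and SLC25A29 still did. SLC25A30 was at -0.029 (0.031 without both), and SLC25A46, an outer membrane protein that acts in mitochondrial dynamics, at -0.056 (0.072 without both).

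**Figure D3:**
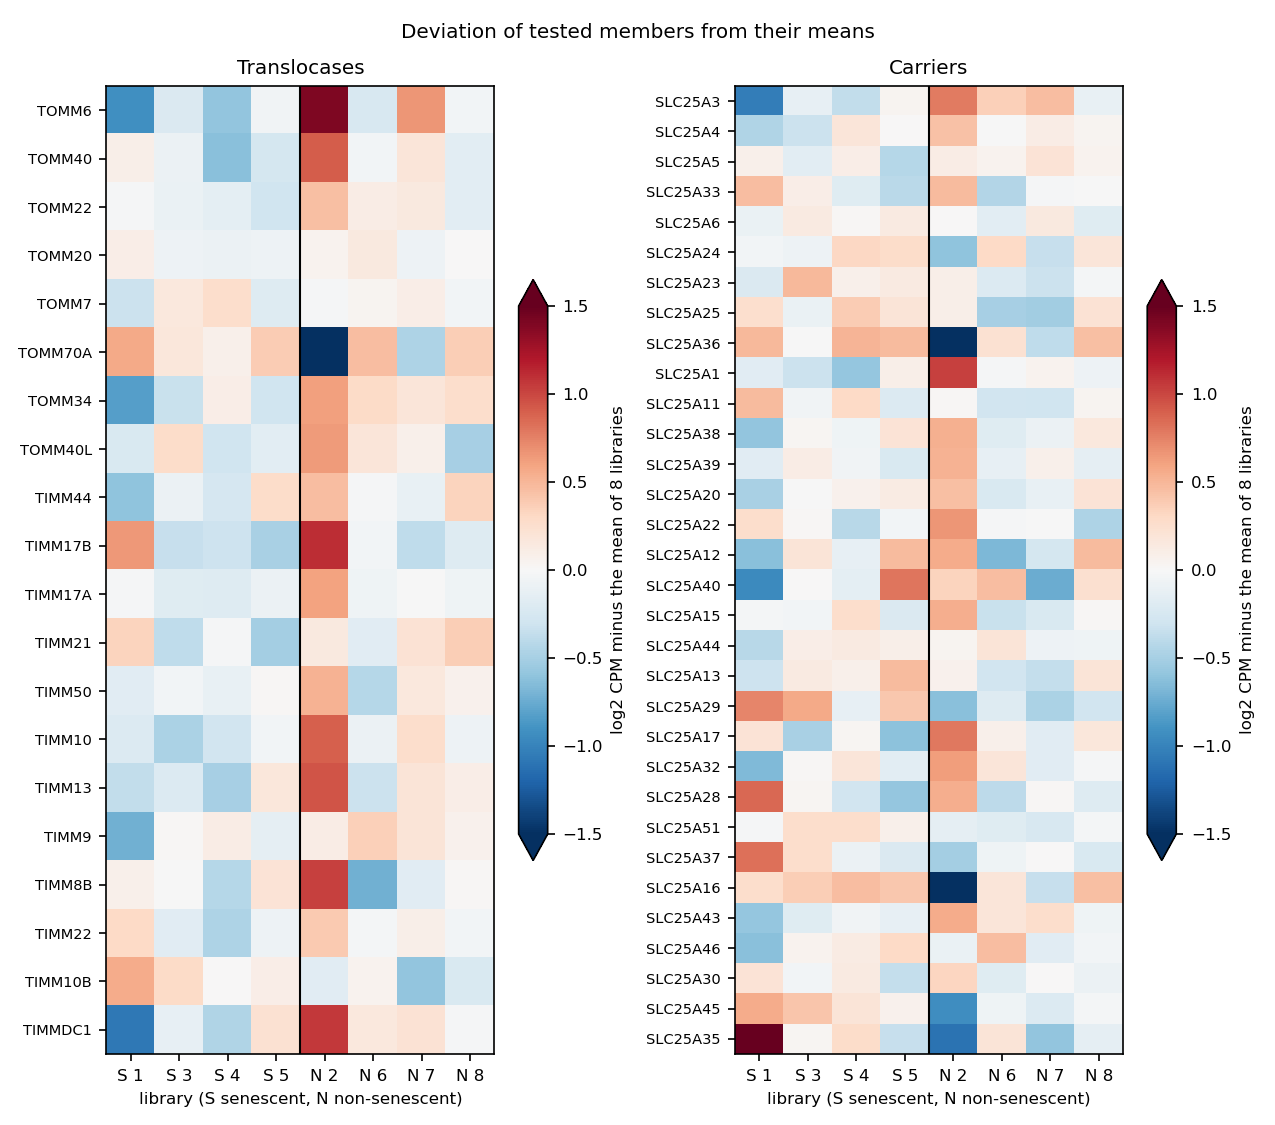
Deviation of each of the 20 tested translocases and 32 of the 33 tested carriers from its own mean over the 8 libraries (colour, log2 CPM, values beyond 1.5 shown in the end colours), with Senescent libraries (S) left of the line and Non_senescent libraries (N) right of it. Column N 2 holds the highest value for 14 of the 20 translocases, and the deep blue cells of TOMM70A, SLC25A36 and SLC25A16 in that column are the low values given in the text.

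The classes were then compared within each library, where scaling has next to no part. Non_senescent 2 held the highest value for 14 of 20 translocases and 15 of 33 carriers, against 29.4% of all tested rows. The mean log2-CPM of the tested translocases minus that of the tested carriers was 0.84, 0.84, 0.72 and 0.89 in Senescent 1, 3, 4 and 5, against 1.36, 1.003, 1.15 and 0.96 in Non_senescent 2, 6, 7 and 8. Every Senescent library lay below every Non_senescent library, and Senescent 5 and Non_senescent 8 were the nearest. The mean was 0.82 ± 0.071 in Senescent and 1.12 ± 0.18 in Non_senescent libraries (SD, n = 4 each), a difference of -0.30. The difference was -0.22 without both Senescent 1 and Non_senescent 2. This difference is a description and carries no test. Of the 20 translocases 10 stood in the group of rows of highest level, as did 10 of the 33 carriers, and the part of level in the difference was not tested.

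For the classes apart, the translocase mean was 5.86, 5.90, 5.79 and 5.93 log2-CPM in the Senescent libraries, against 6.47, 5.98, 6.04 and 6.00 in the Non_senescent libraries. Every Senescent value was below every Non_senescent value, Senescent 5 and Non_senescent 6 being the nearest, and the difference of means was -0.25, or -0.12 without Non_senescent 2. With scaling by totals alone it was -0.13 and the groups overlapped, as they did among rows with at least 50 counts in 4 libraries. The carrier mean was 5.02, 5.07, 5.07 and 5.04 log2-CPM in the Senescent libraries, against 5.11, 4.98, 4.89 and 5.04 in the Non_senescent libraries. These overlapped, though not without both Senescent 1 and Non_senescent 2, and differed by 0.045, where the mean of all tested rows differed by a like amount (0.043).

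**Figure D4:**
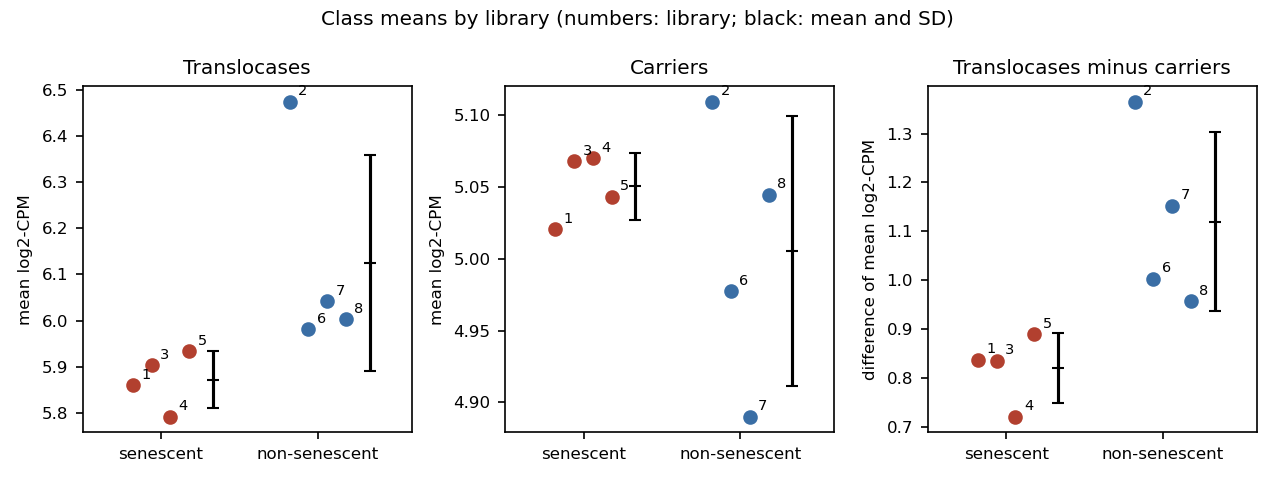
Mean log2-CPM of the tested translocases (left), of the tested carriers (middle) and the difference between them (right) in each library, with library numbers beside the points and the group mean and SD in black. In the right panel the Senescent libraries lie between 0.72 and 0.89 and the Non_senescent libraries between 0.96 and 1.36, and the vertical axes do not start at 0.

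Ratios of paralogs or partners within a library gave no pair whose groups did not overlap. Of 16 pairs considered, 11 had both members tested, and the smallest exact two-sided permutation p was 0.171 (0.629 after adjustment over the 11), where 4 against 4 libraries cannot go below 0.0286. The log2 ratio of TOMM70A to TOMM20, the receptors for carrier precursors and for presequences, was -3.19 ± 0.15 in Senescent and -3.85 ± 0.92 in Non_senescent libraries (SD, n = 4 each; exact permutation p = 0.229). Non_senescent 2 was the lowest, at -5.13. The ratio of TIMM17A to TIMM17B was 1.004 ± 0.46 in Senescent and 0.99 ± 0.37 in Non_senescent libraries. That of SLC25A12 to SLC25A13 was -3.24 ± 0.15 in Senescent and -3.00 ± 0.34 in Non_senescent libraries.

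Partners of import and transport that do not carry these prefixes were read from a list of 37 genes, of which 34 were in the table and 32 were tested. Estimates were below 0 for 24 of the 32 (75%), against 51.9% of all tested rows. Their median was -0.20, against -0.019 over all tested rows. In the group of rows of highest level 70.3% of all rows were below 0. The partners were not split by level, and the part of level was not tested. At an unadjusted p under 0.05 there were 8 lower and 1 higher (28.1% of the 32, against 14.4% of all tested rows), and 0 passed after adjustment in edgeR's test. The groups did not overlap for 7 of the 32 (6 lower, and XPNPEP3 higher), that is for 21.9%, against 9.14% of all tested rows. The list was chosen with results of these data known, so its shares are a description. MIPEP, a peptidase that trims imported precursors, stood at 11.2, 10.3, 12.0 and 13.1 CPM in Senescent 1, 3, 4 and 5, against 29.1, 19.1, 19.0 and 17.1 CPM in Non_senescent 2, 6, 7 and 8, with every Senescent value below every Non_senescent value. Its log2 fold change was -0.85 ± 0.22 (SE; edgeR adjusted p = 0.309) and -0.62 without both libraries that stood apart. GRPEL1, the nucleotide exchange factor of the import motor, stood at 18.9, 18.3, 16.0 and 16.4 CPM in the Senescent libraries, against 35.2, 27.1, 26.6 and 23.4 CPM in the Non_senescent libraries, likewise without overlap, at -0.69 ± 0.20 (SE) and -0.58 without both.

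The outer membrane channel VDAC1 was at -0.63 (-0.38 without both), the matrix chaperonins HSPE1 and HSPD1 at -1.08 and -0.48, and the outer membrane insertase MTCH2 at -0.58, in each case with groups that did not overlap. The margin was narrow for HSPD1, at 694 CPM in Senescent 1 and 700 CPM in Non_senescent 8. It was narrow too between Senescent 5 and Non_senescent 8 for HSPE1 (273 and 276 CPM) and MTCH2 (95.4 and 99.2 CPM). HSPE1 and MTCH2 were at -0.48 and -0.22 without Non_senescent 2, and at -0.31 and -0.19 without both. SFXN1, a serine carrier, was at -0.43 and MTX1, which works with the outer membrane sorting complex, at -0.53, with overlap. SFXN2 was the 1 gene of the list that was higher at an unadjusted p under 0.05, at 0.76 (0.007 to 1.52). Its estimate was 0.48 without Senescent 1, 1.07 without Non_senescent 2 and 0.79 without both.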

How the data were processed

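The 8 libraries came from stretched A549 cells, 4 sorted as positive and 4 as negative for β-galactosidase. Per the labels' protocols, RNA was isolated in Trizol and sequenced as targeted amplicons of human genes (Ion Torrent). An amplicon covers a short stretch of a gene, so counts do not scale with transcript length. Levels of genes were set against each other only in the ranking of rows by mean level and in ratios and means within a library, all of which the yield of each amplicon also enters. Per the submitters' processing notes, fastp 0.20.1, Salmon 1.9 and GRCh38 were used, with the annotation, the summing to genes and the choice of rows not given in the sources used here. Each deposited value is an estimated count for 1 gene. All were whole numbers as deposited, so rounding altered nothing, and each row held counts in 5 libraries or more. The 148 rows of 58 repeated symbols were kept apart, and no member was among them. All pairs of libraries differed by more than sampling noise (lowest chi-square per degree of freedom 8.44).

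Rows were kept with filterByExpr (minimum count 10, total 15), which left 11351, among them 54 of 59 members, and were tested with edgeR 4.0.16 (R 4.3.3; TMM scaling, robust quasi-likelihood test) with Benjamini-Hochberg adjustment over all of them and a threshold of 0.05. CPM are TMM-scaled, and class means use log2-CPM with a prior count of 2. Levels were ranked by mean log2(CPM + 1). Ratios of pairs used a prior count of 2 and an exact permutation test over the 70 assignments. Groups share no replicate number. Members, lists and alternatives were chosen with earlier results of these data known. Genes given in detail were the 5 of smallest p in each direction and class, fixed members and members of the pairs, the others being described by role. Alternatives were other scalings, low-count filters, DESeq2 1.42.0, limma 3.58.1 (voom with library weights) and leaving out libraries. The translocases without accessory members were an alternative added after seeing the data. Tested on simulated counts over 11351 rows, the edgeR fit recovered 39.8% of rows changed 2-fold and 92.4% of those changed 4-fold, with 5.63% of calls false. These counts were drawn independently for each row from the fitted dispersions, with 200 rows changed. No library stood apart in them as Senescent 1 and Non_senescent 2 do, so these shares may not hold for the data. Protein sequences were not used here. The values of 1 carrier enter the counts and class means and are not reported here. Amplicon reads carry no molecular identifiers, and intervals cover the spread between libraries.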

Additional observations from a re-analysis of the deposited data

Results flagged for a closer look

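In 10 of the 136 groups of 4 values examined, 1 library lay far from the other 3, where chance gives about 5% of groups. Non_senescent 2 was the far one for TIMMDC1 (166 CPM), SLC25A1 (157 CPM), TIMM17A (113 CPM), TIMM17B (80.0 CPM) and the translocase mean (6.47 log2-CPM), each time above the other Non_senescent libraries. Senescent 1 was the far one for TIMM17B (58.2 CPM) and TOMM20 (346 CPM), above the other Senescent libraries, and for SLC25A44 (46.2 CPM), below them. Senescent 3 was low for SLC25A36 (36.2 CPM) and for the log2 ratio of SLC25A24 to SLC25A23 (-1.92).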

How the results depend on the processing

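No paired analysis was possible because the groups share no replicate number. The difference of translocases minus carriers was -0.35 to -0.22 with single libraries left out. It was -0.25 without accessory members, an alternative chosen after seeing the data. The groups did not overlap under the scalings and filters tried. Scaling has next to no part in this difference. Once groups are parted, leaving out libraries cannot turn the sign or bring overlap. The kept sign and lack of overlap under scalings and omissions are therefore no support. No member passed an adjusted p of 0.05 under any alternative tried. DESeq2 called 52 rows of the whole table, and leaving out single libraries 0 to 1. Translocases at an unadjusted p under 0.05 were 0 to 1 higher and 2 to 6 lower with single libraries left out, and 2 lower with scaling by totals, without both Senescent 1 and Non_senescent 2, or without accessory members (all against 4). Carriers were 1 to 4 higher (5 with scaling by totals) and 1 to 3 lower, with 1 lower under scaling by totals, with at least 50 counts in 4 libraries, and without both libraries. The number of rows in the whole table at an unadjusted p under 0.05 moved too. It was 1117 to 1980 with single libraries left out, against 1631. It was 1486 with scaling by totals, 1145 without both libraries and 1190 with at least 50 counts in 4 libraries. The rows tested changed with the filter and the libraries left out, so these numbers are not shares. The part of this background in the member counts was not tested. Carriers below 0 numbered 11 with scaling by totals and with limma voom, which also weighted the libraries, and 8 without both libraries, against 19. Of all tested rows 39.5%, 50.8% and 47.9% were below 0 in these settings, in that order. The carrier median was 0.089, 0.071 and 0.11 under these, -0.067 to 0.12 with single libraries left out, and the difference of carrier means 0.16 with scaling by totals. That scaling moved the median of all tested rows to 0.097 and left 39.5% of them below 0, against 51.9%, with 16 of 20 translocases below 0 and a translocase median of -0.14. Without both libraries 14 of 20 translocases were below 0, against 47.9% of all tested rows. Signs turned for SLC25A12 (0.044), SLC25A15 (0.089), SLC25A22 (0.024), SLC25A40 (0.044), SLC25A44 (0.084), SLC25A33 (0.12), SLC25A30 (0.097), SLC25A46 (0.055), TOMM20 (0.052) and TOMM7 (0.081) with scaling by totals, for SLC25A44 (0.017), SLC25A33 (0.036), SLC25A30 (0.021) and TOMM7 (0.017) with the stricter filter, for SLC25A12 (0.27), SLC25A15 (0.10), SLC25A20 (0.029), SLC25A22 (0.036), SLC25A38 (0.034), SLC25A40 (0.23), SLC25A44 (0.071), SLC25A28 (-0.043), SLC25A33 (0.024), SLC25A46 (0.056), TIMM8B (0.16), TOMM7 (0.012) and TOMM40L (0.052) with limma voom and for SLC25A12 (0.28), SLC25A15 (0.20), SLC25A20 (0.11), SLC25A22 (0.039), SLC25A38 (0.11), SLC25A39 (0.033), SLC25A40 (0.24), SLC25A44 (0.11), SLC25A28 (-0.063), SLC25A32 (0.034), SLC25A33 (0.012), SLC25A30 (0.031), SLC25A46 (0.072), TIMM8B (0.22), TIMM50 (0.023), TOMM7 (0.067), TOMM40L (0.037), SLC25A4 to SLC25A5 (0.17) and SLC25A24 to SLC25A23 (-0.29) without both libraries. With single libraries left out, estimates crossed 0 for SLC25A12 (-0.26 to 0.12), SLC25A40 (-0.44 to 0.14), SLC25A44 (-0.070 to 0.083), SLC25A28 (-0.30 to 0.28), SLC25A46 (-0.17 to 0.10), TOMM7 (-0.12 to 0.062), SLC25A4 to SLC25A5 (-0.24 to 0.074), SLC25A24 to SLC25A23 (-0.23 to 0.18), TIMM17A to TIMM17B (-0.16 to 0.23), TIMM9 to TIMM10 (-0.10 to 0.34), SLC25A22 (-0.24 to 0.14), SLC25A33 (-0.19 to 0.18), SLC25A21-AS1 (-0.079 to 0.27), SLC25A15 (-0.15 to 0.19), SLC25A30 (-0.10 to 0.10), SLC25A39 to SLC25A40 (-0.28 to 0.30), TIMM8B (-0.42 to 0.25) and TIMM17B (-0.63 to 0.16). Except where stated, the cause was not tested. The 95% intervals of the tested members reached a median of 0.50 (log2) to either side of the estimate, which is the precision that 4 libraries per group gave.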
